A study of Mus musculus with 6 samples.

Results

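The 6 genes Foxp3, Ikzf2, Ctla4, Tnfrsf4, Itgb8 and Capg, each linked to regulatory T cells, were followed across sorted kidney T cells. They were taken by symbol, and each matched 1 of the 32285 features of the deposited matrices. Their transcripts were counted as unique molecular identifiers (UMIs), which count each captured RNA molecule once, and are given as CPM, each gene's UMIs scaled to the summed UMIs of the retained genes in its library.

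Kidney T cells of male WT C57BL/6J mice, 7 to 8 weeks old, had been profiled by single-cell RNA sequencing. Control mice had normal kidneys, and IR mice had an ischemia-reperfusion injury made by a 30 min clamp on each renal pedicle. Serum creatinine had been measured 24 h after ischemia to check the injury. Live CD45+ TCR+ cells were sorted into CD4, CD8 and DN cells, the last lacking both CD4 and CD8, and each of the 6 groups gave 1 library. The number of mice, any pooling of animals and the time of cell collection were not given in the sources used here. With 1 library per group no difference has a replicate check, no test was run, and all intervals are 95% intervals that cover counting error only.

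Regulatory T cells are CD4 T cells that restrain other immune cells, and in the kidney they are known to limit inflammation after ischemia. Foxp3 is the transcription factor that sets and holds their state, and Ikzf2 (Helios) is an Ikaros family factor found in many of them but also in other T cells. Ctla4 takes up the costimulatory ligands CD80 and CD86, Tnfrsf4 (OX40) is a costimulatory receptor, Itgb8 pairs with the alpha v integrin to release active TGF-beta, and Capg caps actin filaments. Ctla4 and Tnfrsf4 are also induced on activated conventional T cells.

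In GRCm38 all members are protein-coding genes. Foxp3 (ENSMUSG00000039521) lies on chromosome X from 7573644 to 7595245 on the plus strand, and Capg (ENSMUSG00000056737) on chromosome 6 from 72544391 to 72562983 on the plus strand. Chromosome 1 holds both Ctla4 (ENSMUSG00000026011, 60887000 to 60915832, plus strand) and Ikzf2 (ENSMUSG00000025997, 69531214 to 69687245, minus strand). Tnfrsf4 (ENSMUSG00000029075) lies on chromosome 4 from 156013843 to 156016612 on the plus strand, and Itgb8 (ENSMUSG00000025321) on chromosome 12 from 119158022 to 119238802 on the minus strand. They differ in intron content, which bears on the IR contrasts below: Ikzf2 holds 144419 intronic bases and Itgb8 69721, whereas Tnfrsf4 holds 1405.

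RefSeq promoters (GRCm38.p6, the 250 bases before each transcript start) were given for 5 of the 6 members. Those of Foxp3, Ctla4 and Tnfrsf4 are shown, and they are the ones that hold the NFAT core marked below. NFAT, a factor switched on by T cell receptor signals, is known to act on Foxp3. Itgb8 and Capg transcripts, like those of Ctla4 and Tnfrsf4, were found with Foxp3 in CD4 cells, as described further on. The capitals mark the NFAT core GGAAA on either strand, here always as its complement TTTCC, and each line is written 5′ to 3′ on the plus strand. The Foxp3, Ctla4, Itgb8 and Capg windows lie inside the span that the GENCODE annotation gives those genes, since that span also covers transcripts that start further upstream.
Foxp3, first RefSeq start, chrX:7579426-7579675: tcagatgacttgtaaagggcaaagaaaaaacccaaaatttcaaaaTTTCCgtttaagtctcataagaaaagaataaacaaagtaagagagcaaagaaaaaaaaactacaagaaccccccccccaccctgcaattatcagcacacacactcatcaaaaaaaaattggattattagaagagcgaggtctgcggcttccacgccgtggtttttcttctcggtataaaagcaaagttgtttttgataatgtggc
Foxp3, second RefSeq start, chrX:7580233-7580482: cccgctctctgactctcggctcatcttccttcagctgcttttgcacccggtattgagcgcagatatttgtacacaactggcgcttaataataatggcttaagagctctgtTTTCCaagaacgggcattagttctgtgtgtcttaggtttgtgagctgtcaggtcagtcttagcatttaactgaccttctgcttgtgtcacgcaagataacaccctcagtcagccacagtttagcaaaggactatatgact
Ctla4, chr1:60908775-60909024: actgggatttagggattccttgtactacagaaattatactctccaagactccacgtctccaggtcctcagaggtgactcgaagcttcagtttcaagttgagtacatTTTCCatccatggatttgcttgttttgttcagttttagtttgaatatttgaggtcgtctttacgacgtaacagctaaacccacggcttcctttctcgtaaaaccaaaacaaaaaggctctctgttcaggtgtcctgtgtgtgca
Tnfrsf4, chr4:156013445-156013694: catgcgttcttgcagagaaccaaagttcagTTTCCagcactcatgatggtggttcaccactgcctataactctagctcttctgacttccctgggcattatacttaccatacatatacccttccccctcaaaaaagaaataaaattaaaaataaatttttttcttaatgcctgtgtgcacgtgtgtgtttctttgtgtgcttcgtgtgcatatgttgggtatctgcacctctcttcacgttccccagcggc
Each of these 4 windows held 1 match of the NFAT core, and the Itgb8 and Capg windows held 0. None of the 6 windows held TGTTTAC (a forkhead motif), TGTGGTT (RUNX) or TGACTCA (AP-1) on either strand. Among 32851 RefSeq promoters of the same length, 55.6% held GGAAA, 3.17% TGTTTAC, 4.40% TGTGGTT and 4.46% TGACTCA, so the core is common and a match is a description only.

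The 6 libraries kept 47939 of 54039 barcodes, 8898 to 9305 cells in each control library and 4042 to 10108 in each IR library. Depth differed by condition, with a median of 6626 to 8364.5 UMIs per cell in control and 1450.5 to 2355.5 in IR, and the file headers named another version of the counting software for each condition. All 6 T cell markers (Cd3d, Cd3e, Cd3g, Trac, Trbc1 and Trbc2) were present in every library, with a summed level of 6323 to 8584 CPM. In all, 997 barcodes had a sequence that another library of the same condition also held, among them 26 to 62 of the used cells per library. Barcodes of 2 clusters in which under 50% of barcodes held a Cd3 UMI (338 barcodes, 17.2% and 12.7% with one) were left out as non-T.

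Foxp3 transcripts stood far higher in the CD4 libraries than in the others. Foxp3 stood at 18.1 CPM (16.9 to 19.3, 915 UMIs) in control CD4 and 28.4 CPM (25.8 to 31.2, 440 UMIs) in IR CD4. It stood at 0.0878 CPM (4 UMIs) in control CD8, 0.0658 CPM (4 UMIs) in control DN, 0.466 CPM (3 UMIs) in IR CD8, and at 0 in IR DN, where the floor of 3 counts is 0.684 CPM. Both CD4 libraries were above all CD8 and DN libraries, and the intervals of the 4 others overlapped. On the log2 scale control CD4 exceeded CD8 by 7.69 (6.33 to 9.57) and DN by 8.10 (6.74 to 9.98), and IR CD4 exceeded CD8 by 5.93 (4.38 to 8.22). In IR DN no Foxp3 UMI was counted, and IR CD4 stood 41.6-fold above that floor. This is not a lower bound, since the interval of IR DN reached up to 0.841 CPM.

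**Figure D1:**
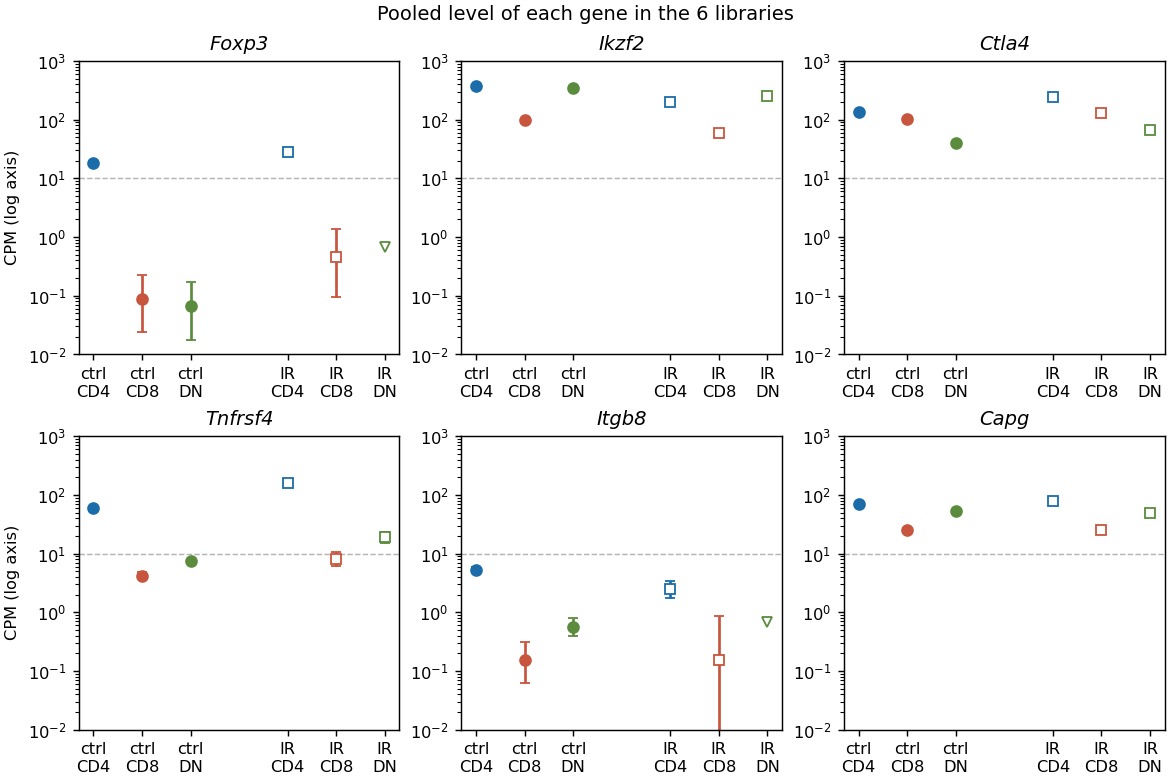
Level of each of the 6 genes in the 6 libraries, in CPM on a log axis, with filled circles for control, open squares for IR and bars for 95% Poisson intervals. Open triangles give the floor of 3 counts where no UMI was counted (Foxp3 and Itgb8 in IR DN), the bar of Itgb8 in IR CD8 runs below the axis, and the dashed line marks 10 CPM. Foxp3 stands above 10 CPM only in the CD4 libraries, whereas Ikzf2, Ctla4 and Capg do so in every library.

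A Foxp3 UMI was found in 342 of 9254 control CD4 cells (3.70%) and 309 of 10108 IR CD4 cells (3.06%). Because depth sets how often a scarce transcript is seen, each cell was also thinned to 1000 UMIs, and the shares then were 1.31% (120 of 9154 cells) and 1.58% (158 of 9980 cells). Thinned shares in the other subsets, which as a rule lack such cells, were 0.0114% and 0.0226% in control CD8 and DN and 0.0325% in IR CD8. In IR DN no Foxp3 UMI was found among 3647 thinned cells, which by a limit of 3 counts allows up to 0.0823% of cells with a UMI at this depth and does not limit the cells that express the gene. Median depth was 7271 UMIs in control CD4 cells with a Foxp3 UMI and 7015 in those without, against 2225 and 2359 in IR. Among the Foxp3-positive cells 63.2% in control and 29.1% in IR held 2 or more Foxp3 UMIs, and the highest count was 12 in control and 8 in IR.

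Outside CD4, 11 cells held Foxp3, each with 1 UMI. None of the 11 held a Cd4 UMI, and none carried a barcode that was also in a CD4 library. In the clusters of all cells, 299 of the 342 control Foxp3 cells (87.4%) fell in 1 cluster, in which 73.6% of the 406 control CD4 cells held Foxp3. In IR, 283 of 309 (91.6%) fell in another cluster of 2424 IR CD4 cells, of which 11.7% held Foxp3. These clusters had used the members among their genes.

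Ikzf2 did not follow Foxp3 across the subsets. In control it reached 376 CPM (370.2 to 381) in CD4, 350.1 CPM (345 to 355) in DN and 101 CPM (97.7 to 104) in CD8. In IR it reached 202 CPM (195 to 209) in CD4, 255 CPM (239.9 to 270.03) in DN and 59.6 CPM (53.8 to 65.9) in CD8. CD8 was the lowest in both conditions, and CD4 and DN, though their intervals did not overlap, differed by far less than either did from CD8. The log2 ratio of CD4 over DN was 0.10 (0.07 to 0.13) in control and -0.34 (-0.44 to -0.24) in IR, so that the order of CD4 and DN differed between conditions. After centring on genes of like intronic length these ratios were -0.01 and -0.07. DN exceeded CD8 by 1.80 (1.75 to 1.85) in control and 2.10 (1.93 to 2.27) in IR.

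Most Ikzf2 UMIs of CD4 lay in cells in which no Foxp3 UMI was found. Such cells, here and in the comparisons below, are not shown to lack the Foxp3 transcript. Median depth was 7023.5 UMIs per cell in control CD4 and 2355.5 in IR CD4, so this limit differs between the conditions. Foxp3-positive cells held 38.6% of the Ikzf2 UMIs of control CD4 and 23.9% of those of IR CD4. With them left out, Ikzf2 in CD4 was below DN by a log2 ratio of -0.54 (-0.57 to -0.51) in control and -0.68 (-0.79 to -0.58) in IR. It was above CD8 by 1.26 (1.21 to 1.31) and 1.41 (1.26 to 1.57). After thinning, an Ikzf2 UMI was found in 16.9% (control) and 12.2% (IR) of DN cells, against 14.8% and 8.52% of CD4 cells and 5.39% and 2.81% of CD8 cells. Unthinned, the shares were 48.5% and 17.0% in DN, 35.4% and 14.4% in CD4, and 14.98% and 4.11% in CD8.

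Among the members found above 10 CPM outside CD4, Ctla4 alone stood higher in CD8 than in DN, and it did so in both conditions. Its levels were 136 CPM (133 to 139) in control CD4, 103 CPM (100.1 to 106) in CD8 and 40.4 CPM (38.8 to 42.1) in DN. In IR they were 242 CPM (234 to 249.9) in CD4, 131 CPM (122 to 139.9) in CD8 and 68.2 CPM (60.7 to 76.3) in DN. The order CD4, CD8, DN was the same in both conditions, and neighbours in it did not overlap within a condition. DN lay below CD8 by a log2 ratio of -1.35 (-1.42 to -1.28) in control and -0.94 (-1.14 to -0.75) in IR. In control, CD4 cells without a Foxp3 UMI held 88.1 CPM of Ctla4, which was below CD8 by a log2 ratio of -0.23 (-0.29 to -0.17), whereas in IR such cells held 199 CPM and were above CD8 by 0.60 (0.49 to 0.71). These comparisons leave out a part of one library alone, and whether the order differs between the conditions was not tested. CD4 cells without a Foxp3 UMI are not shown to lack the transcript, and depth was lower in IR.

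Tnfrsf4 was mainly a CD4 transcript. It stood at 60.1 CPM (57.9 to 62.2) in control CD4, 7.47 CPM (6.80 to 8.19) in DN and 4.19 CPM (3.62 to 4.83) in CD8. In IR it stood at 159.8 CPM (154 to 166) in CD4, 19.1 CPM (15.3 to 23.7) in DN and 8.07 CPM (6.03 to 10.6) in CD8. The 3 subsets kept the order CD4, DN, CD8 without overlap in both conditions. CD4 exceeded CD8 by a log2 ratio of 3.84 (3.63 to 4.06) in control and 4.31 (3.91 to 4.73) in IR. With the Foxp3-positive cells left out, Tnfrsf4 in CD4 was still above CD8, by 3.11 (2.89 to 3.33) in control and 3.97 (3.57 to 4.39) in IR.

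Itgb8 was scarce. It stood at 5.26 CPM (266 UMIs in 126 cells) in control CD4 and 2.46 CPM (38 UMIs in 31 cells) in IR CD4. In the other libraries it stood at 0.559 CPM (34 UMIs) in control DN, 0.154 CPM (7 UMIs) in control CD8, 0.155 CPM (1 UMI) in IR CD8 and 0 in IR DN. CD4 was the highest in both conditions, by a log2 ratio of 5.10 (4.03 to 6.43) over CD8 in control, and by 3.98 in IR with the wide interval of 1.42 to 9.32 that 1 UMI allows. Thinned shares of cells with Itgb8 were 0.415% in control CD4 and 0.130% in IR CD4, and 0 of 3647 in IR DN, which by the same limit allows up to 0.0823%.

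Capg was highest in CD4 and lowest in CD8. It reached 69.6 CPM (67.3 to 71.9), 52.8 CPM (50.97 to 54.6) and 25.2 CPM (23.8 to 26.7) in control CD4, DN and CD8. In IR it reached 79.2 CPM (74.8 to 83.8), 48.3 CPM (42.0 to 55.3) and 24.8 CPM (21.1 to 29.0). The subsets did not overlap within a condition, whereas for DN and for CD8 the control and IR intervals did. With Foxp3-positive cells left out, the CD4 over DN ratio moved from 0.40 to -0.11 (-0.19 to -0.04) in control and from 0.71 to 0.49 (0.27 to 0.71) in IR.

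In these pooled values fewer cells of a type and less RNA per cell cannot be told apart. A difference was counted when it was at least 2-fold and the larger of both levels was 10 CPM or more. A gene with only 1 of the 2 levels at 10 CPM could thus be counted in 1 direction alone. In control this held for Foxp3 and Tnfrsf4 in CD4 over CD8 and over DN, which could not be counted as lower. In IR it held for Foxp3 in CD4 over both and for Tnfrsf4 in CD4 and in DN over CD8. For control CD4 over CD8, 4 of the 5 members at that level were higher (Foxp3, Ikzf2, Tnfrsf4 and Capg) and 0 lower, where 2.61% of 8920 genes were higher and 1.75% lower. With Foxp3-positive cells left out of CD4, the Capg ratio was 0.95, under the limit. For control CD4 over DN, 3 of 5 were higher (Foxp3, Ctla4 and Tnfrsf4) and 0 lower, against 1.4% and 1.35% of all genes. For control DN over CD8, Ikzf2 and Capg were higher and Ctla4 lower of 3 members counted, against 3.54% and 3.03%. The Capg ratio there was 0.83 at the lowest when cells were thinned to 1000 UMIs or averaged, which ends its call.

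In the IR libraries, Foxp3, Ikzf2, Tnfrsf4 and Capg (4 of 5) were higher and 0 lower for CD4 over CD8, where 3.72% of all genes were higher and 3.91% lower. Ctla4, at 242 CPM in CD4 and 131 CPM in CD8, lay just under the limit. It passed with the removed features kept in the total, which moved the median of all genes by 0.18. For IR CD4 over DN, Foxp3, Ctla4 and Tnfrsf4 (3 of 5) were higher and 0 lower (2.46% and 4.84%). For IR DN over CD8, Ikzf2 and Tnfrsf4 were higher and 0 of 4 members lower (7.73% and 4.22%). The Tnfrsf4 ratio there fell under 2-fold, to 0.86 when thinned and 0.94 as a mean over cells. Capg at 0.96 and Ctla4 at -0.94 lay just inside the limit of 1 on the log2 scale there, and Ctla4 passed it under TMM scaling (-1.09) and when thinned (-1.04). Capg passed it with the removed features kept in the total, which moved the median of all genes there by 0.35. Itgb8 never reached 10 CPM in a whole library and so entered none of these counts.

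A list of 30 other regulatory T cell genes, among them receptors, cytokines and transcription factors such as Il2ra, Il10, Ikzf4 and Icos, was counted by the same limits. In control CD4 over CD8, 9 of the 23 listed genes at 10 CPM were higher and 2 lower, with a median log2 ratio of 0.70 against -0.03 over all genes (2.61% of which were higher and 1.75% lower). In control CD4 over DN, 2 of 21 were higher and 0 lower, with a median of 0.06 (all genes 0.00, 1.4% and 1.35%). DN over CD8 gave 9 higher and 3 lower of 22, with a median of 0.62 (all genes -0.02, 3.54% and 3.03%).
In IR CD4 over CD8 the counts were 11 higher and 2 lower of 24, with a median of 0.96 (all genes 0.08, 3.72% and 3.91%). IR CD4 over DN gave 7 and 0 of 22, with a median of -0.13 (all genes -0.01, 2.46% and 4.84%). IR DN over CD8 gave 13 and 4 of 23, with a median of 1.28 (all genes 0.10, 7.73% and 4.22%). Il2ra, the alpha chain of the IL-2 receptor, stood at 45.9 CPM in control CD4, 59.0 CPM in DN and 6.48 CPM in CD8. Icos, a costimulatory receptor, stood at 345 CPM, 326 CPM and 104 CPM in the same order.

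Within CD4, the other 5 members were all higher in cells with a Foxp3 UMI. Ikzf2 stood at 3416 CPM in control cells with Foxp3 and 241 CPM in those without, and at 1461 CPM and 159 CPM in IR. The log2 ratios were 3.83 (3.78 to 3.87) and 3.20 (3.08 to 3.32). Ctla4 stood at 1223 CPM and 88.1 CPM in control and 1516 CPM and 199 CPM in IR, ratios of 3.80 (3.73 to 3.87) and 2.93 (2.82 to 3.05). The smallest of these 4 ratios was the 7.63-fold difference of Ctla4 in IR. Tnfrsf4 stood at 599.6 CPM and 36.2 CPM in control and 1149 CPM and 126 CPM in IR, ratios of 4.05 (3.95 to 4.16) and 3.19 (3.05 to 3.32).
Capg gave ratios of 3.46 (3.36 to 3.57) and 2.61 (2.39 to 2.82), from 539 CPM against 48.8 CPM in control and 414 CPM against 67.8 CPM in IR. Itgb8 gave the largest ratios of the 5 in both conditions, 4.76 (4.40 to 5.12) and 5.03 (4.03 to 6.03). Foxp3-positive cells held 54.5% of the Itgb8 UMIs of control CD4 and 52.6% of those of IR CD4, although in IR that was 20 of 38 UMIs. They held 32.8% to 42.3% of the UMIs of the other 4 members in control and 17.2% to 23.9% in IR. By the same limits all 5 were counted as higher in both conditions, where 3.95% of all genes were higher and 3.3% lower in control, and 6.72% and 5.74% in IR. The IR class summed to 509805 retained UMIs, so that 10 CPM there was only a few UMIs. Itgb8 stood under 10 CPM without Foxp3 in control and IR (2.50 and 1.20 CPM), so that it could not be counted as lower.

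**Figure D2:**
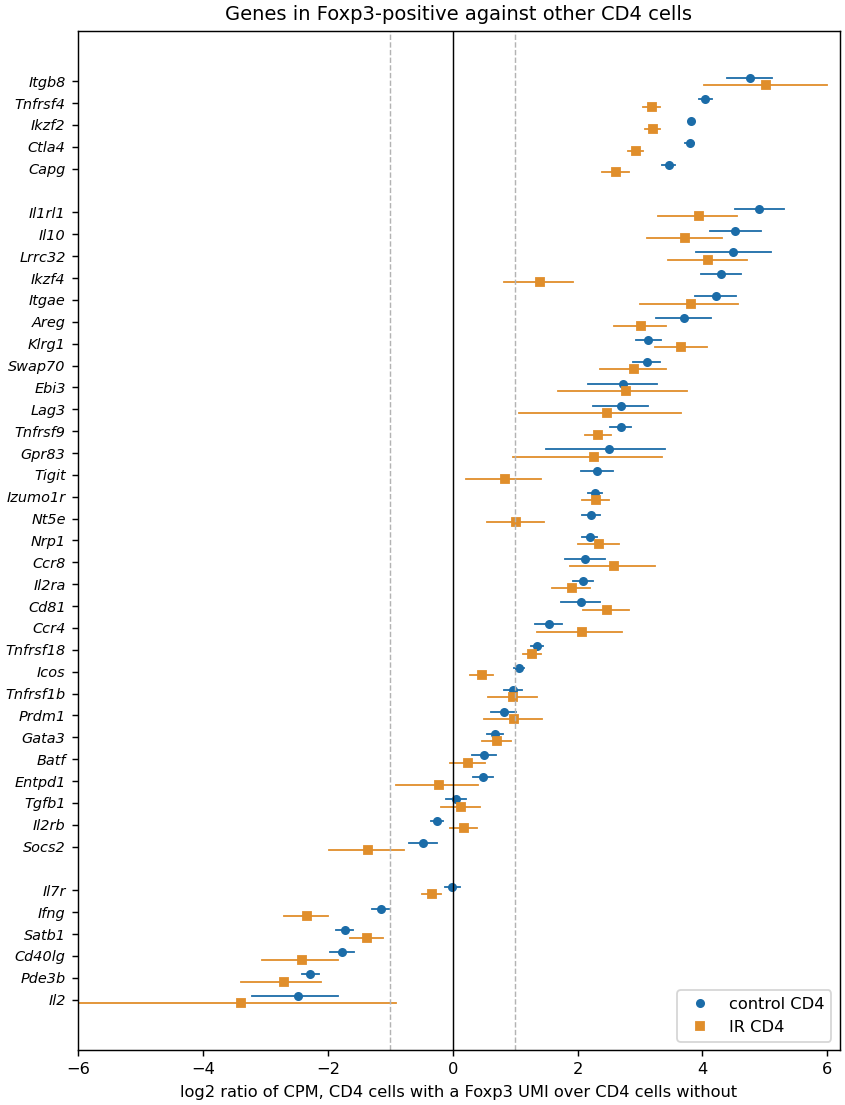
Log2 ratio of CPM in CD4 cells with a Foxp3 UMI over CD4 cells without one, in control and IR, for the other 5 members, the 30 listed regulatory T cell genes and the 6 genes known to be lower in such cells. Bars are 95% intervals for counting error (that of Il2 in IR is cut at -6) and dashed lines mark 2-fold. All 5 members lie above the upper dashed line in both conditions, and 5 of the 6 genes of the last group lie below the lower one.

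Many of the other regulatory T cell genes were higher in the same cells. Of the listed genes at 10 CPM, 21 of 29 were higher and 0 lower in control, with a median log2 ratio of 2.20 against -0.03 over all genes. In IR 20 of 30 were higher and 1 (Socs2, an inhibitor of cytokine signals) was lower, with a median of 2.16 against 0.03. Listed genes that reached 10 CPM only with Foxp3 could not be counted as lower, which bears on these counts and medians. Among these were Il1rl1 (2.00 and 4.34 CPM without Foxp3 in control and IR), Il10 (2.09 and 5.35 CPM) and Lrrc32 (1.01 and 4.01 CPM). Il1rl1, the IL-33 receptor, gave ratios of 4.91 in control and 3.94 in IR. Il10, an inhibitory cytokine, gave 4.53 and 3.72, and Lrrc32, which holds latent TGF-beta on the cell surface, gave 4.50 and 4.10. Areg, a growth factor for epithelial repair, gave 3.70 and 3.01, and Il2ra gave 2.09 and 1.91.

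Of 6 genes known to be low in regulatory T cells, 5 were lower in both conditions. Il2, the cytokine that these cells take up but do not make, gave log2 ratios of -2.48 and -3.40. Pde3b gave -2.28 and -2.71, Cd40lg -1.77 and -2.41, Satb1 -1.73 and -1.38, and Ifng -1.16 and -2.34. The exception was Il7r, at -0.01 and -0.34. Cd4 itself stood at 235 CPM with Foxp3 and 209 CPM without in control, and at 204 CPM and 144 CPM in IR. Of the other defining markers of regulatory T cells, Ikzf4 gave 4.30 and 1.40, Izumo1r 2.28 and 2.29, and Tnfrsf18 1.35 and 1.27.

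The 10 genes whose pattern was most like that of Foxp3 were ranked by the smaller of the control and IR ratios among 4614 genes. They were Frmd5, Itgb8, Ncmap, Lrrc32, Rln3, Il1rl1, Itgae, Il10, Snx9 and Penk, of which 1 is a member and 4 are in the fixed list. The ranked genes had entered by their UMIs in cells with Foxp3. The members and the list had been chosen with earlier results of these data known, so this overlap is a description only. Frmd5, a FERM domain protein, stood at 184 CPM with Foxp3 and 3.70 CPM without in control and 131 CPM and 4.08 CPM in IR. Penk, the precursor of enkephalin peptides, gave ratios of 3.57 and 4.15. Itgae, the CD103 chain that binds epithelial E-cadherin, gave 4.21 and 3.81.

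Markers of other cells were examined in the same classes. The summed level of the 11 myeloid markers was 94.7 CPM in control cells with Foxp3 and 101 CPM in those without, and 141 CPM and 226 CPM in IR. The 4 B cell markers summed to 15.9 CPM (34 UMIs) with Foxp3 and 1.78 CPM without in control, and to 21.6 CPM (11 UMIs) and 11.2 CPM in IR, with Ms4a1 at 0 with Foxp3 in control. Most of these UMIs were of Cd79b, which stood at 14.5 CPM (31 UMIs) with Foxp3 and 0.661 CPM without in control, and at 15.7 CPM and 2.74 CPM in IR. The part of these markers in the ratios of the members was not tested. Ccr6, a chemokine receptor found on Th17 cells among others, stood at 12.1 CPM (26 UMIs) with Foxp3 and 1.51 CPM without in control, and at 15.7 CPM (8 UMIs) and 3.01 CPM in IR.

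Co-detection was measured per cell after thinning, as the number of cells with both genes over the number expected from their 2 shares in the library. Of control Foxp3 cells 82.5% also held Ikzf2, 57.5% Ctla4, 32.5% Tnfrsf4 and 28.3% Capg, and of IR Foxp3 cells 51.3%, 63.9%, 39.2% and 23.4%. Observed over expected was 5.59 and 6.02 for Foxp3 with Ikzf2, 8.24 and 6.23 with Ctla4, 9.27 and 5.63 with Tnfrsf4, and 7.16 and 5.74 with Capg (control and IR). With Itgb8 it was 14.1 and 14.6, but from only 7 and 3 cells. All 15 pairs of members stood at 2 or more in both CD4 libraries. The lowest of them were Ikzf2 with Capg in control at 2.41 (2.01 to 2.87) and Ctla4 with Capg in IR at 2.54. Cells still vary in how many different genes they hold at 1000 UMIs, so these ratios are a description.

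**Figure D3:**
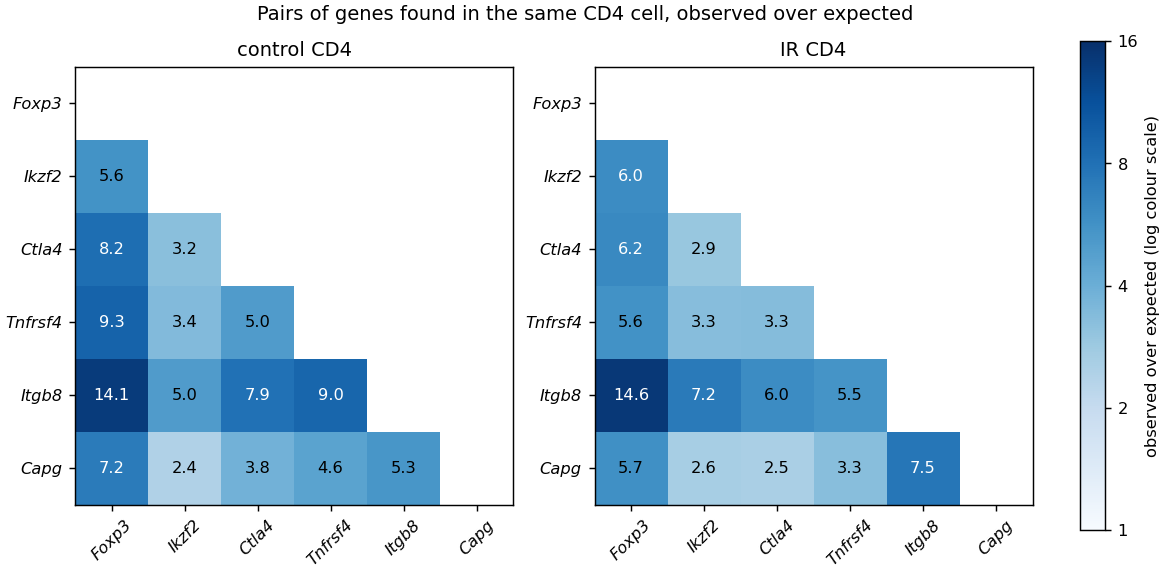
Observed over expected number of cells with a UMI of both genes, for all 15 pairs of members in control CD4 and IR CD4 after thinning each cell to 1000 UMIs. Every cell of both maps is at 2 or more, and the pairs with Foxp3 run from 5.59 to 14.1 in control and from 5.63 to 14.6 in IR.

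Outside CD4 most pairs were seen together in few cells or none. Ikzf2 with Ctla4 gave 1.24 (0.860 to 1.74) in control CD8, 1.14 (0.818 to 1.56) in control DN, 1.16 (0.597 to 2.02) in IR CD8 and 0.852 (0.466 to 1.43) in IR DN, intervals that include 1. Ikzf2 with Capg gave 1.06 (0.486 to 2.02), 0.971 (0.719 to 1.28), 1.06 (0.128 to 3.83) and 0.761 (0.365 to 1.40) in the same order. Pairs with Tnfrsf4 stood higher in part. Ctla4 with Tnfrsf4 gave 5.25 (1.93 to 11.4, 6 cells) in control DN, 3.09 (1.002 to 7.20, 5 cells) in IR CD8, 2.84 (0.775 to 7.28, 4 cells) in IR DN and 1.32 (0.160 to 4.78, 2 cells) in control CD8. Ikzf2 with Tnfrsf4 gave 2.16 (1.04 to 3.98, 10 cells) in IR DN and 1.45 (0.750 to 2.54, 12 cells) in control DN. Tnfrsf4 with Itgb8 rested on 1 cell each in control CD8 and control DN.

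The number of members per cell was also counted. Cells with 3 or more of the 6 members numbered 206 in control CD4, 1 in control CD8 and 3 in control DN after thinning, and 226, 1 and 2 in IR. Of the CD4 cells with 3 or more members, 87 in control and 99 in IR held Foxp3. Unthinned, cells with 3 or more members numbered 733 in control CD4, 68 in control CD8 and 199 in control DN, and 576, 3 and 4 in IR, so that DN stood nearer to CD4 in ratio in control than after thinning. Without thinning, 46 control CD4 cells and 5 IR CD4 cells held all 6 members, and 0 cells of the other 4 libraries did.

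The members were also higher together in CD4 cells in which no Foxp3 UMI was found. In those cells, Ctla4 stood at 151 CPM with Ikzf2 and 51.2 CPM without in control and at 475 CPM and 151 CPM in IR, log2 ratios of 1.56 (1.47 to 1.65) and 1.65 (1.54 to 1.76). Tnfrsf4 gave 2.78 (2.64 to 2.92) and 1.84 (1.71 to 1.97) in cells with Ctla4 over cells without. Capg gave 1.78 (1.65 to 1.91) and 1.92 (1.73 to 2.11) in cells with Tnfrsf4. The 62 control cells with Itgb8 but no Foxp3 UMI stood at 2680 CPM of Ikzf2, 791 CPM of Ctla4 and 681 CPM of Tnfrsf4. A cell without a Foxp3 UMI is not shown to lack the transcript at this depth.

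For the other members, the genes with the largest ratio in cells with the member over cells without were listed in each subset. In CD4 the 5 genes at the top with Ikzf2 were Gm28112, Frmd5, Itgb8, Lrrc32 and Foxp3. Gm28112 is annotated as a transcript inside Ikzf2 on the same strand, so reads of the pair cannot be told apart. Foxp3 stood at 44.1 CPM in CD4 cells with Ikzf2 and 1.27 CPM without in control, and at 121 CPM and 10.3 CPM in IR.

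In CD8 the genes at the top with Ikzf2 were Klra7, Klra6, Fcer1g, Cxcl10 and Spry2. Fcer1g, the signalling adaptor of Fc and NK receptors, stood at 56.0 CPM with Ikzf2 and 4.23 CPM without in control CD8 and at 268 CPM and 15.3 CPM in IR CD8. The log2 ratios were 3.72 (3.46 to 3.99) and 4.13 (3.68 to 4.57). Klra7, a Ly49 family receptor, stood at 78.0 CPM and 3.80 CPM in control and at 168 CPM and 6.68 CPM in IR. The Klra genes are near-identical copies, and how the counting shared their reads is uncertain. Of the fixed NK receptor list, 6 of 9 genes at 10 CPM were higher with Ikzf2 in control CD8 (median 2.03), where 0.352% of all genes were, and 8 of 9 in IR CD8 (median 2.53), where 5.19% were. The IR CD8 cells with Ikzf2 summed to 310015 retained UMIs, so that 10 CPM there was only a few UMIs. Klra1, Klra5, Klra9, Klrb1c and Ncr1 stood at 0.395 to 6.83 CPM in the whole control CD8 library. In the whole IR CD8 library they stood at 0.310 to 8.22 CPM. Those of them that were counted thus reached 10 CPM only in cells with Ikzf2 and could not be counted as lower. In Foxp3-positive CD4 cells the same list ran the other way, with 6 of 6 genes lower in control, where 3.3% of all genes were, and 5 of 6 in IR, where 5.74% were. Klrb1c (NK1.1), for example, stood at 4.67 CPM with Foxp3 and 50.5 CPM without in control.

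In DN the genes at the top with Ikzf2 included Nsg2, Id3, Klra6 and Hes1. Id3, an inhibitor of E proteins, stood at 13.2 CPM with Ikzf2 and 1.72 CPM without in control DN and at 44.0 CPM and 8.86 CPM in IR DN. Its log2 ratios were 2.94 (2.51 to 3.39) and 2.31 (1.59 to 3.04). Tcf7 (TCF-1), a transcription factor of naive and memory T cells, stood at 105 CPM with Ikzf2 against 60.8 CPM without in control, and at 175 CPM against 67.4 CPM in IR. S1pr1, the receptor that guides T cells out of tissues, gave log2 ratios of 0.55 (0.42 to 0.68) and 1.60 (1.16 to 2.05). In CD4 both went the other way, with Tcf7 at -0.85 and -1.01 and S1pr1 at -0.61 and -0.90.

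**Figure D4:**
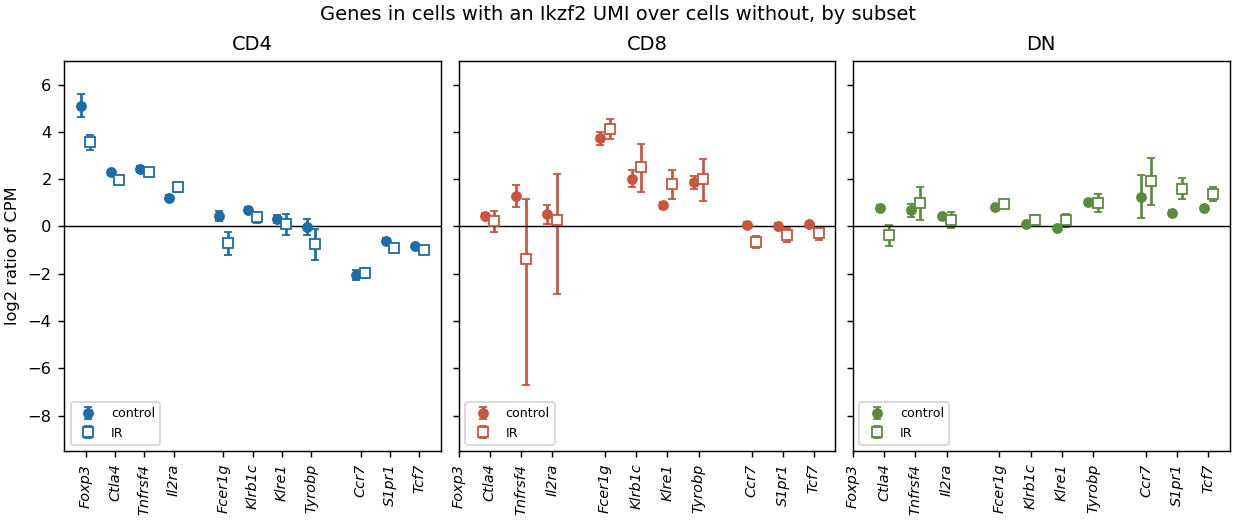
Log2 ratio of CPM in cells with an Ikzf2 UMI over cells without one in CD4, CD8 and DN, for regulatory T cell genes (Foxp3, Ctla4, Tnfrsf4, Il2ra), NK receptor genes (Fcer1g, Klrb1c, Klre1, Tyrobp) and naive genes (Ccr7, S1pr1, Tcf7), with 95% intervals and with genes under 20 UMIs left out. Among the genes drawn, Foxp3 has the largest ratio in CD4, Fcer1g in CD8 and Ccr7 in DN.

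With Ctla4 the top genes in CD4 were Foxp3, Penk, Itgb8, Lrrc32 and Il10. In CD8 they were Rgs16, Lag3, Pdcd1, Myb and Cd200, which include the inhibitory receptors Lag3 and Pdcd1 (PD-1). Pdcd1 stood at 122 CPM with Ctla4 and 47.5 CPM without in control CD8 and at 56.9 CPM and 16.9 CPM in IR CD8. In DN they were Ccl1, Cxcl10, Pdcd1, Serpina3f and Serpina3g, where the chemokine Ccl1 stood at 142 CPM and 26.5 CPM in control and at 129 CPM and 12.4 CPM in IR.
With Tnfrsf4 the top genes in CD4 were Penk, Frmd5, Areg, Foxp3 and Cd83. Areg stood at 21.5 CPM with Tnfrsf4 and 1.27 CPM without in control and at 104 CPM and 5.80 CPM in IR. In DN the first was Ctla4, at 203 CPM with Tnfrsf4 and 34.1 CPM without in control and at 249 CPM and 64.3 CPM in IR, followed by Serpina3g, Rbpj, Maf and Rabgap1l. In CD8 they were Xcl1, Odc1, Mif, Kdm6b and Cks2, over only 51 IR cells with Tnfrsf4. Of these 5 only Xcl1, a chemokine, was 2-fold higher in both conditions, with log2 ratios of 1.33 (1.24 to 1.43) and 3.89 (3.64 to 4.13). The intervals of Kdm6b in IR (-0.15 to 1.10) and Cks2 in control (-0.02 to 0.67) included 0, and the median of all genes was 0.01 in control and 0.49 in IR.

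In CD4 the top genes with Capg were Itgb8, Igkc, Frmd5, Itgae and Areg. Igkc, an immunoglobulin light chain gene of B cells, stood at 18.5 CPM with Capg and 0.455 CPM without in control and at 48.9 CPM and 6.94 CPM in IR. The 4 B cell markers summed to 7.28 CPM with Capg and 1.34 CPM without in control CD4, and to 29.5 CPM and 9.58 CPM in IR, and their part in the result was not tested.
In CD8 they were Lgals3, S100a4, Lgals1, Vim and Ramp1, of which only Lgals3 was 2-fold higher in both conditions and Ramp1 in IR had an interval that included 0 (-0.17 to 1.16). Lgals3 stood at 112 CPM with Capg and 39.3 CPM without in control and at 331 CPM and 42.9 CPM in IR. The 11 myeloid markers summed to 377 CPM (58 UMIs) with Capg and 42.3 CPM without in IR CD8, and to 67.8 CPM and 73.9 CPM in control CD8. In IR DN they summed to 299 CPM (62 UMIs) with Capg and 53.6 CPM without, and in control DN to 39.6 CPM and 50.5 CPM. Their part in the Capg values of the IR libraries was not tested.
In DN the top genes with Capg were Pxdc1, Klra5, Gzmb, Tmem176a and Tmem176b. Il23r, the IL-23 receptor, stood at 29.2 CPM with Capg and 1.84 CPM without in control DN and at 62.7 CPM (13 UMIs) and 3.59 CPM (15 UMIs) in IR DN. Il23r thus stood higher with Capg in both DN libraries.

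The contrast of IR with control asks how these genes differed after injury. Condition, software version and depth moved together and cannot be told apart. The median log2 ratio of all genes at 10 CPM was -0.26 in CD4, -0.38 in CD8 and -0.26 in DN. It fell with intronic length, from 0.42, 0.22 and 0.31 in the first of 20 bins of intronic length to -1.08, -0.86 and -0.65 in the last (CD4, CD8 and DN). Ratios are therefore given as measured and also centred on the bin of each gene.

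Tnfrsf4 was the member with the largest IR excess in CD4 as measured. Its log2 ratio was 1.41 (1.33 to 1.49) in CD4, 0.94 (0.47 to 1.39) in CD8 and 1.36 (1.005 to 1.70) in DN, and 1.04, 0.83 and 1.07 after centring. Ctla4 gave 0.83 (0.77 to 0.89) in CD4 and 0.75 (0.58 to 0.93) in DN, and 1.19 and 1.11 after centring. In CD8 Ctla4 gave 0.34 (0.24 to 0.45) as measured, 0.80 after centring, and -0.08 with the removed features kept in the total, so that its direction there turned with the scaling. Both activation-linked receptors were thus higher in the IR libraries of CD4 and DN under each scaling run.

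Foxp3 gave 0.65 (0.48 to 0.82) in CD4 and 0.82 after centring, which is below the 2-fold limit. Ikzf2 gave -0.90 (-0.95 to -0.84) in CD4, -0.76 (-0.91 to -0.60) in CD8 and -0.46 (-0.55 to -0.37) in DN. After centring on genes of like intronic length Ikzf2 stood at 0.18, 0.10 and 0.19, so that its direction turned in all 3 subsets. Itgb8, also rich in introns, gave -1.10 (-1.63 to -0.61) in CD4 and -0.43 after centring. Capg gave 0.19 (0.09 to 0.28) in CD4, -0.02 (-0.27 to 0.22) in CD8 and -0.13 (-0.33 to 0.07) in DN, and its direction turned in each subset under at least 1 scaling.

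**Figure D5:**
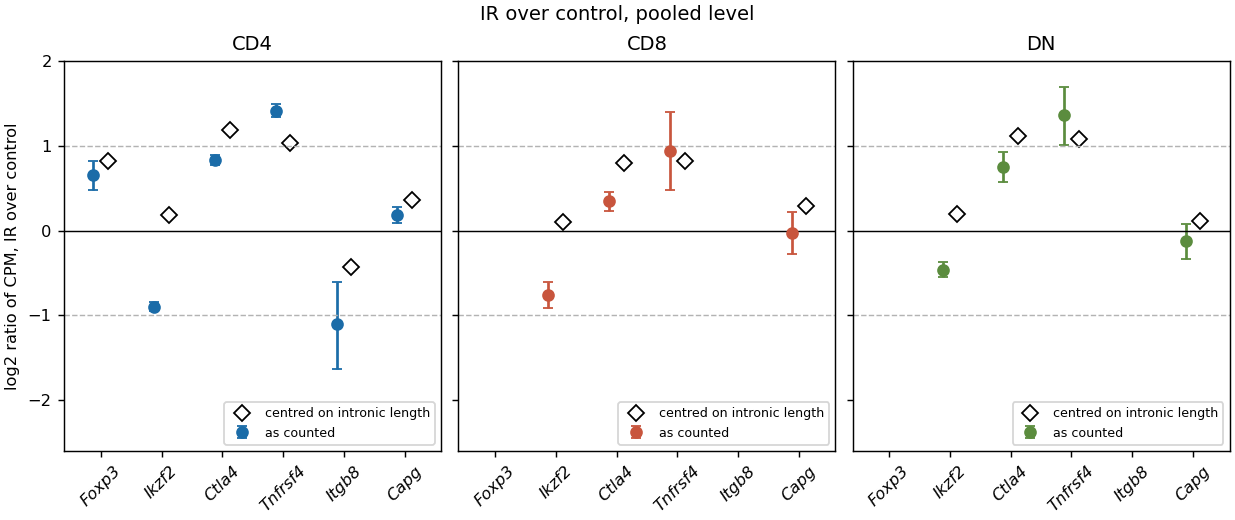
Log2 ratio of IR over control for the members in CD4, CD8 and DN, as measured (points with 95% intervals) and centred on genes of like intronic length (open diamonds). Genes under 10 CPM in both libraries are not drawn except Itgb8 in CD4 and Tnfrsf4. Ikzf2 moves from -0.90, -0.76 and -0.46 to just above 0 on centring, whereas Tnfrsf4 stays above 0 in all 3 subsets.

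By the call limits 1 of 5 members was higher in IR CD4 (Tnfrsf4) and 0 lower, where 7.72% of all genes were higher and 15.1% lower. In CD8, 0 of 3 members passed in either direction (7.92% and 17.7%). In DN, 1 of 4 was higher (Tnfrsf4) and 0 lower (8.31% and 11.3%). These shares depend on the scaling: with the removed features kept in the total, 310 genes were higher and 2571 lower in CD4 in place of 698 and 1361, 327 and 3257 in CD8 in place of 722 and 1615, and 527 and 1523 in DN in place of 765 and 1036. With those features kept, IR CD4 over CD8 gave 361 higher and 194 lower in place of 326 and 342, and IR DN over CD8 1053 and 181 in place of 695 and 379 (532 and 499 under TMM scaling). IR CD4 over DN then gave 144 higher and 443 lower in place of 219 and 431. With no minimum level, which adds genes with few or 0 UMIs and takes 0 as 3 counts, IR over control gave 6557 higher and 2785 lower in CD4, 8017 and 2903 in CD8, and 8930 and 1953 in DN. Of the 30 listed regulatory T cell genes, 5 of 23 were higher and 2 lower in CD4 (median 0.08), 2 and 6 of 19 in CD8 (median -0.34), and 2 and 4 of 20 in DN (median 0.04), where the medians of all genes were -0.26, -0.38 and -0.26.

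Within Foxp3-positive CD4 cells the ratios of IR over control were smaller or lower for each of the 5 other members except Itgb8. Ctla4 gave 0.31 (0.19 to 0.43) in cells with Foxp3 and 1.17 in cells without, and Tnfrsf4 gave 0.94 and 1.80. Capg gave -0.38 (-0.60 to -0.17) and 0.47, and Ikzf2 -1.22 (-1.34 to -1.12) and -0.60, or -0.38 and 0.48 after centring. Itgb8 gave -0.79 and -1.06. Areg, outside the members, gave 1.86 (1.34 to 2.37) in cells with Foxp3 and 2.55 in cells without. Foxp3-positive cells with a single Foxp3 UMI were more frequent in IR, where 29.1% held 2 or more against 63.2% in control, and the part of this in these values was not tested.

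Levels of other cell markers also differed between the libraries. The myeloid markers summed to 101, 73.3 and 48.6 CPM in control CD4, CD8 and DN and to 224, 50.3 and 65.2 CPM in IR. Erythroid markers summed to 1.16 to 1.28 CPM in control and 20.1 to 27.5 CPM in IR, B cell markers to 1.91 to 11.8 CPM and 11.5 to 26.2 CPM, and the NK receptor list to 1458 CPM in control DN, 1293 CPM in IR DN and 174 to 239 CPM elsewhere. Of 6 genes of naive or recirculating T cells (Ccr7, Igfbp4, Klf2, Lef1, S1pr1 and Tcf7), the first 3 and S1pr1 were at least 2-fold higher in IR over control CD4, by log2 ratios of 2.91, 2.65, 2.29 and 2.07, and in CD8, by 3.05, 2.11, 2.31 and 1.83. In DN, Klf2 alone of them passed the limits, at 1.55. The part of these markers in the member ratios was not tested. Leaving out 296 barcodes with 2 or more myeloid UMIs gave IR over control ratios in CD4 of 1.43 for Tnfrsf4 and 0.83 for Ctla4.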

How the data were processed

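The authors deposited raw UMI counts per gene and barcode for 6 libraries, which they had made from 10x Genomics 3' libraries with Cell Ranger on mm10 and had not normalized. The file headers name Cell Ranger 5.0.1 in the 3 control libraries and 6.0.1 in the 3 IR libraries, whereas the submitters' processing notes name 6.0.1 alone. The methods name default settings, and neither the methods nor the labels say how these treat introns and strand. Groups came from the sample titles.

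Cell filters followed the study: at least 500 features, at most 20% mitochondrial UMIs, and the top 5% of barcodes by UMIs removed per library as likely doublets (no doublet caller was run), which left 48277 of 54039 barcodes. Mitochondrial and ribosomal protein genes and Malat1 (99 features) were excluded from library totals. Clusters were found with scanpy 1.11.5 and igraph 0.11.9 (2000 variable genes, 30 components, 15 neighbours, resolution 1), and 338 barcodes in 2 clusters with a Cd3 UMI in under 50% of cells were left out. UMIs were summed per library (4386523 to 60775944 retained UMIs, a floor of 3 counts at 0.0494 to 0.684 CPM) and divided by the total. Intervals are exact Poisson, exact conditional (ratios) and Clopper-Pearson (shares) at 95%. Shares and pairs were measured after thinning each cell to 1000 UMIs, which dropped 30 to 565 shallower cells in a control library and 128 to 395 in an IR library.

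The genes named are the 6 members, the genes of fixed lists, and for each member and subset with at least 50 positive cells in both conditions the 5 genes (10 for Foxp3) with the largest ratio in cells with the member over cells without, by the smaller of both conditions, with at least 20 UMIs in each and T cell receptor segments left out. Members and lists were chosen with earlier results of these data known. Gene positions came from GENCODE M21 on GRCm38, which matched 32235 of 32285 features (99.8%). Promoter motifs were searched in the 250 bases before the start and not in the transcribed bases after it. The call limits and intervals were tested on simulated data. The alternatives tried included edgeR's TMM scaling (version 4.0.16 in R 4.3.3), other cell filters, removed features kept, myeloid or shared barcodes left out, thinning, a mean over cells, other minimum levels, another definition of a Foxp3 cell, and centring on 20 bins of intronic length. Of these, thinning to 500 UMIs of retained features, centring within Foxp3 cells and leaving out Foxp3 cells were added after the data were seen. Other steps used Python 3.11.15, numpy 2.4.6 and scipy 1.17.1. Results that need certain genes are left out.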

Additional observations from a re-analysis of the deposited data

Results flagged for a closer look

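Tigit, an inhibitory receptor of the regulatory T cell list, differed with IR in opposite directions between the sorted subsets. It stood at 16.3, 31.2 and 9.20 CPM in control CD4, CD8 and DN and at 29.1, 15.2 and 36.9 CPM in IR. The log2 ratio of IR over control was 0.84 in CD4, -1.04 in CD8 and 2.01 in DN, as measured and not centred on intronic length. The medians of all genes were -0.26, -0.38 and -0.26, and in CD8 17.7% of all genes were counted as lower. With 1 library per group the difference between subsets was not tested.

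Itgb8 was found in barcodes that the comparisons left out, those of the 2 clusters in which 17.2% and 12.7% of barcodes held a Cd3 UMI. It stood at 77.7 CPM (53.2 to 109.7; 32 UMIs) in the 303 such IR barcodes and at 8.70 CPM (0.220 to 48.5; 1 UMI) in the 35 such control barcodes. In IR CD4 cells it stood at 2.46 CPM. All 31 IR barcodes with Itgb8 were present in more than 1 IR library, as were 293 of the 303, and they carried 23 different barcode sequences. Foxp3 was at 0 and Lyz2 and Cd74 at 1 UMI each in the 303. The genes that stood highest in these clusters over T cells were Apod (6601 CPM), Ptgds (3496 CPM), Serpina3n (1071 CPM), Klk6 (875 CPM), Cldn11 (860.2 CPM), Olig1 (277 CPM), Col3a1 (682 CPM) and Mog (646 CPM), among which Cldn11, Mog and Olig1 are known from myelin-forming cells. These genes were named after their values were seen.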

How the results depend on the processing

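With 1 library per group no library could be left out in turn, and the precision of scarce genes (Foxp3 outside CD4, Itgb8) is set by counts of a few UMIs. No paired analysis was possible within a subset because each condition had 1 library there. An additive fit over the 6 libraries that takes the subsets as pairs was not run. The 21 member ratios past the limits kept their direction under each alternative of scaling, cell filter, depth and cell weight, and 19 stayed at least 2-fold. The exceptions were Capg in control DN over CD8 (down to 0.83) and Tnfrsf4 in IR DN over CD8 (down to 0.86), when thinned or averaged over cells. With Foxp3 cells left out of CD4, which sets Foxp3 itself to 0 there, Capg in control CD4 over CD8 also came under the limit, at 0.95. Of the summary values 225 stayed the same and 21 moved. A count was taken as the same also when it changed by a small factor, and a share when it stayed within its main interval. Some changes by 1 member are therefore not among the 21. Members higher in control DN over CD8 were 1 when thinned or averaged over cells (2 in the main setting). With no minimum level Itgb8 was higher there as well, at 0.559 CPM in control DN and 0.154 CPM in control CD8. In IR DN over CD8, 1 was lower under TMM scaling or thinning (0 otherwise), and 1 was higher when averaged over cells or at 50 CPM (2 in the main setting). With the removed features kept, Capg was higher there as well, beside Ikzf2 and Tnfrsf4. In IR over control CD4, 1 was lower with the removed features kept, averaged over cells or with no minimum (0 otherwise), and 2 were higher after centring (1 otherwise). In CD8, 1 was lower with the removed features kept and 1 higher with no minimum (0 otherwise), and in DN 2 were higher with no minimum or centring and 0 at 50 CPM (1 otherwise). The share of CD4 cells with Foxp3 was 3.70%, 0.638% and 0.746% in control and 3.06%, 1.06% and 1.28% in IR without thinning, at 500 UMIs and at 500 retained UMIs. The causes were not tested. Keeping the removed features moved the median of all genes by -0.38, -0.45 and -0.19 in IR over control CD4, CD8 and DN, by 0.35 in IR DN over CD8, 0.18 in IR CD4 over CD8, -0.17 in IR CD4 over DN and 0.11 in control CD4 over CD8, with no minimum level by 0.39, 0.60 and 0.67 in IR over control CD4, CD8 and DN, -0.12 in IR CD4 over CD8 and -0.22 in IR CD4 over DN, and TMM scaling by 0.10 in IR over control CD8 and -0.16 in IR DN over CD8.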
